A study of Mus musculus with 4 samples.

Results

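MicroRNA rows are the lines of an islet RNA-seq table that carry the name of a microRNA hairpin. They were chosen by their own values: a row belonged here when its RefSeq name was that of a microRNA and the mean of its 4 libraries was at least 1 RPKM (reads per kilobase of the row, scaled to the depth of the library), with each symbol taken once. This gave 497 of the 1089 microRNA symbols in the table, which held 33923 entries in all. Of the other 592 symbols, 220 were listed at 0 in every library. Mir22hg, the long transcript that contains Mir22, matched the naming rule and is counted among the 497.

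The libraries were made from whole pancreatic islets, a mix of cell types, of wild type male C57bl6 mice aged 3 months. Islets of several mice were pooled, kept overnight at 11 mM glucose, held for 2 h at 2.8 mM and then split into 2.8 mM glucose (LoGlu, 2 libraries) and 16.8 mM glucose (HiGlu, 2 libraries). The sample labels give the final exposure as 2 h for LoGlu and 12 h for HiGlu, whereas the study's own description gives 12 h for both, so length of exposure and glucose cannot be told apart if the labels are right. The study's methods give a fixed number of islets for each replicate, so each library was its own set of islets, but all sets were drawn from one pool of mice. The p-values therefore measure the spread between sets of one pool and not between animals.

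A microRNA begins as a hairpin inside a long RNA polymerase II transcript. Drosha and Dgcr8 cut the hairpin out in the nucleus, Xpo5 carries it to the cytoplasm, Dicer1 trims it to about the length of the mature strand, and an Argonaute protein holds that strand and uses its seed, bases 2 to 8, to find messenger RNAs. Many hairpins lie in introns or exons of other genes, their hosts, and neighbouring hairpins are often cut from one transcript. In islets, miR-375 and miR-7 are known as abundant microRNAs, and the miR-132 and miR-212 pair is known to follow cAMP signalling. The library kit used here takes long polyadenylated RNA, in which mature microRNAs are not captured, so a row counts fragments of longer RNA over the hairpin and not the mature microRNA. In whole islets, fewer cells of a type and less RNA per cell cannot be told apart.

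The mature strands of the rows that carry the main results are shown first, from RefSeq (GRCm38.p6), with the seed in capitals. Of the 497 members, 458 had a mature sequence there. The first pair, which rose from no reads, shares one seed, and miR-148b shares its seed with miR-152.
miR-132-3p: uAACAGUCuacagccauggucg
miR-212-3p: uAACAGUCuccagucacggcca
miR-148b-3p: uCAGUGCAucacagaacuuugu
miR-152-3p: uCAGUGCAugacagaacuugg
The next strands come from other rows that rose or fell most, and no other member carries the seed of any of them.
miR-1930-3p: gGUGCAGUuacuguggcugugg
miR-296-5p: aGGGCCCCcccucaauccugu
miR-298-5p: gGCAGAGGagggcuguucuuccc
miR-670-5p: aUCCCUGAguguauguggugaa
miR-8114: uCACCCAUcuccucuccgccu
miR-710: cCAAGUCUuggggagaguugag
miR-3109-5p: aAUGGAUGcgaugguucccaugcu
miR-704: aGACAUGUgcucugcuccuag
The miR-200 family has 2 seeds, and its hairpins lie in 2 clusters on separate chromosomes, so each cluster holds both seeds.
miR-200b-3p: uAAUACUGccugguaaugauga
miR-200c-3p: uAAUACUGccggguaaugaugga
miR-429-3p: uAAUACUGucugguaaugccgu
miR-200a-3p: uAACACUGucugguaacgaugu
miR-141-3p: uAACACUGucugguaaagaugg
The miR-26 and let-7 families are shown because several hairpins on separate chromosomes give strands with one seed.
miR-26a-5p: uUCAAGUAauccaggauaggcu
miR-26b-5p: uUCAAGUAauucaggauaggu
let-7b-5p: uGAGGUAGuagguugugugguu
let-7f-5p: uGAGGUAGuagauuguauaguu
let-7g-5p: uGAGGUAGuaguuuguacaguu

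The RPKM values of a row are made of a few whole reads, and these were recovered from the steps between values: with the RefSeq hairpin length less 1 base, 98.4 to 99.0% of the values checked came out whole within 0.03 of a read. The library depths that gave this were 58460000 reads (LoGlu 1), 51960000 (LoGlu 2), 60710000 (HiGlu 1) and 50800000 (HiGlu 2). The hairpins measured 43 to 139 bases, with a median of 73. The median member held 74 reads over the 4 libraries together, and 332 members held at least 40. Among members with a mean of 1 to 2 RPKM the median SD between replicates was 0.464 on the log2(RPKM + 0.5) scale, against 0.0684 for coding rows of that level. At 20 to 100 RPKM the medians were 0.132 for members and 0.112 for coding rows. The rows near the minimum were thus far noisier than coding genes of the same RPKM, and intervals given below for read ratios are exact 95% Clopper-Pearson intervals that cover counting error only.

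Members spanned a wide range of levels. The median of their means was 4.28 RPKM, 118 members reached 10 RPKM and 11 reached 100. The hairpins of 435 members could be matched exactly to the mouse genome of NCBI build 37 (mm9), 430 of them at 1 place. By the GENCODE vM1 annotation 252 lay in an intron of a gene on the same strand, 113 in an exon of one, 32 on the strand opposite to a gene and 37 between genes. Host rows were found for 387 members, and 357 of these members had a higher level per length than their host. Members had to reach 1 RPKM and host rows did not, so the choice itself favoured members above their host. The median ratio of row to host was 3.58 for exonic members (n = 110), 3.77 for intronic members (n = 246) and 6.03 for members opposite to a gene (n = 31). Host values appear to be per length of the whole gene with its introns. Over that span 68.4 to 70.6% of the RefSeq rows checked gave whole reads, coding and non-coding rows together, without microRNAs. The tolerance in that check widened with the number of reads, so some rows could be whole by accident. Whether a read over a hairpin was also counted for its host is not given in the sources used here.

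**Figure D1:**
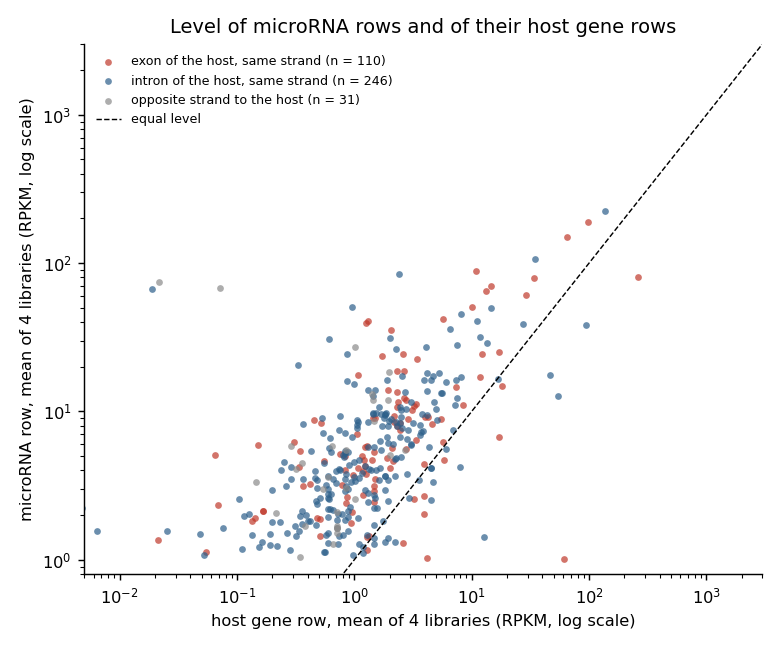
Mean RPKM of each microRNA row (vertical, log scale) against that of its host gene row (horizontal, log scale), 1 point per member with a host row, coloured by place in the host. Most points, 357 of 387, lie above the dashed line of equal level, in exons as in introns. The microRNA rows had to reach 1 RPKM and the host rows did not, which favours points above the line.

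The highest rows were not those of the well-known islet microRNAs. Mir6236 stood at 1153 and 2572 RPKM in LoGlu and at 740.4 and 2679 RPKM in HiGlu, so that library 2 was the higher one in both groups. Rn45s, the ribosomal RNA precursor, had the same order, with 794.8 and 4066 RPKM in LoGlu and 700.7 and 3676 RPKM in HiGlu. The part of ribosomal RNA carry-over in that row was not tested. Mir682 followed at 715.5 and 594.4 RPKM in LoGlu and 629.7 and 586.4 RPKM in HiGlu. Mir692-2b and Mir692-3 carried identical values, 495.1 and 487.9 RPKM in LoGlu against 309.5 and 279.0 RPKM in HiGlu, so the 2 copies could not be told apart. The same held for Mir1906-1 and Mir1906-2, at 108.0 and 111.1 RPKM in LoGlu and 160.8 and 159.0 RPKM in HiGlu. In all, 12 members shared their values with another member. Mir5121, in an exon of the ribosomal protein gene Rpl13a, held 160.7 to 214.4 RPKM. Mir7076, in an intron of the chymotrypsinogen gene Ctrb1, varied widely between replicates, with 73.3 and 232.0 RPKM in LoGlu and 184.1 and 412.8 RPKM in HiGlu.

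Ctrb1 itself stood at 47.1 and 137.4 RPKM in LoGlu and at 114.0 and 251.1 RPKM in HiGlu, in the same order as the row inside it. Mir6969, in the colipase gene Clps, kept that order too, with 16.2 and 39.8 RPKM in LoGlu and 34.6 and 71.5 RPKM in HiGlu. These are genes of the exocrine pancreas. The summed level of the 13 exocrine acinar markers was 108.1 and 308.8 RPKM in LoGlu and 263.9 and 545.6 RPKM in HiGlu, with none of the 13 listed at 0. Mir7076 and Mir6969 did not pass the limma test (adjusted p = 0.17 and 0.14). With the replicate number as a block both passed (0.018 and 0.012), and voom called Mir7076 (0.040) but not Mir6969 (0.060). Both rows and the acinar sum were higher in HiGlu than in the LoGlu library of the same number, and the part of exocrine cells in these rows was not tested. The islet label held by its defining hormone genes, whose sum over 7 markers was 27080 and 23770 RPKM in LoGlu and 48300 and 44400 RPKM in HiGlu, with 3 of the 7 called higher. The part of this shift in the microRNA rows was not tested.

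The rows differed both ways between the groups. With limma on log2(RPKM + 0.5) and a Benjamini-Hochberg adjusted p under 0.05, 161 of the 497 members differed between HiGlu and LoGlu, 70 of them higher and 91 lower at 16.8 mM. That is 32.4% of members, beside 33.4% of all 7867 transcripts tested, so with the deposited scaling the share of changed microRNA rows lay near the background. Split by direction, 14.1% of members were higher, beside 10.7% of all transcripts, and 18.3% were lower, beside 22.8%. The median log2 fold change was -0.09 over members and -0.11 over all transcripts tested. The split between directions moved with the scaling: after setting all library medians equal 69 members were higher and 60 lower, and after quantile normalization 63 and 57. These were 25.96% and 24.14% of members, beside 47.9% and 47.4% of all transcripts under the same scalings. With either scaling the share of members called thus lay below the background. The reverse held among rows with at least 1 RPKM in every library. There 188 of 376 members were called, a higher share than the 2733 of 6909 transcripts (39.56%). Whether members lay above or below the background therefore depended on the setting. The lowest HiGlu value lay above the highest LoGlu value in 105 members (21.1%, beside 22.2% of all transcripts), and the reverse held for 149 (30.0%, beside 48.3%).

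The number of calls depended on how the low reads were weighed. When voom, which gives low counts less weight, was run on the reconstructed reads, 57 of 441 members passed, 31 higher and 26 lower, or 12.9% of members beside 36.2% of the 21739 transcripts tested that way. Of the 161 members past the limma threshold, 48 also passed in voom in the same direction (28 higher, 20 lower), 93 did not and 20 were not in the voom fit. In 41 of the called members the counting interval of the HiGlu to LoGlu read ratio included 1. The minimum of 1 RPKM also bears on the calls. A LoGlu mean under 1 RPKM was found in 26 members, which had passed the minimum only through HiGlu, and 16 of these were called higher. Mir132, Mir212, Mir148b, Mir1930, Mir296, Mir298, Mir129-1 and Mir3061, described below, were among these 26. A HiGlu mean under 1 RPKM was found in 27 members, and 17 of these were called lower. Mir710, Mir3109, Mir3104, Mir200b and Mir299b, described below, were among these 27.

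Mir132 and Mir212 rose from no reads. Mir132 (chr11:74987184-74987249, plus strand, mm9) had 0 and 0 reads in LoGlu and 14 and 15 reads in HiGlu. Mir212 (chr11:74986890-74986980) had 0 and 0 reads in LoGlu and 35 and 10 reads in HiGlu. Both libraries of each group lay apart from both of the other group. Against a floor of 3 reads over the LoGlu group, Mir132 was at least 9.57-fold higher and Mir212 at least 14.85-fold higher at 16.8 mM. The limma adjusted p was 1.8e-05 for Mir132 and 0.0016 for Mir212, and the voom adjusted p was 1.1e-04 and 2.1e-04. Both rows had reached the minimum only through HiGlu, so these p-values are not independent of the choice of rows. The 2 hairpins lie 203 bases apart in one intron of 1700016P03Rik, a non-coding gene for which no host row was used, and their 3p strands share the seed AACAGUC. The hairpins are shown with the 3p strand in capitals.
Mir212: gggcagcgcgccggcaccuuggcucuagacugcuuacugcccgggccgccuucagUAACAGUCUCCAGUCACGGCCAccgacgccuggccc
Mir132: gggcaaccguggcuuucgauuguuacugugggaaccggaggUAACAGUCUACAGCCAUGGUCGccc

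Mir148b changed most on the log2 scale. Its hairpin (chr15:103115556-103115652, plus strand) lies in an intron of Copz1, which encodes a coat subunit of Golgi vesicles. It had 0 and 2 reads in LoGlu and 157 and 92 reads in HiGlu, or 0 and 0.401 RPKM against 26.9 and 18.9 RPKM. The log2 fold change was 5.10 ± 0.28 (SE, limma adjusted p = 8.7e-05; voom adjusted p = 1.3e-05), and the read ratio was 123, with a counting interval from 33.8 to 1024. The Copz1 row stood at 3.16 and 2.97 RPKM in LoGlu and at 3.10 and 2.81 RPKM in HiGlu, a log2 fold change of -0.05 (adjusted p = 0.73). The row was therefore far below its host at 2.8 mM and far above it at 16.8 mM. Mir148b had reached the minimum only through HiGlu. Mir152, whose 3p strand has the same seed and which lies in an intron of the related gene Copz2, had 11 and 23 reads in LoGlu and 22 and 9 in HiGlu, overlapping groups.
Mir148b: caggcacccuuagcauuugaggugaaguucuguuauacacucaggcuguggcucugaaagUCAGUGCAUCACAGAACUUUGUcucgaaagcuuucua

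Mir1930 behaved in a like way on fewer reads. It lies in an intron of Sumo3 (chr10:77103969-77104052, plus strand), which encodes a ubiquitin-like modifier. It had 1 and 1 reads in LoGlu and 43 and 33 in HiGlu, and the read ratio was 37.6 with an interval from 10.1 to 316. The log2 fold change was 3.59 ± 0.09 (limma adjusted p = 9.8e-06; voom adjusted p = 8.1e-05). Mir1930 too had reached the minimum only through HiGlu. Sumo3 fell, from 10.03 and 8.65 RPKM to 6.85 and 6.42 RPKM (log2 fold change -0.46, adjusted p = 0.025). Mir1930 and Mir148b were the 2 members in which both HiGlu libraries held at least 20 reads and lay 5-fold or more above both LoGlu libraries, and Mir710 was the 1 member in which the reverse held.

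Mir296 and Mir298 form another pair that started from no reads. Their hairpins lie 378 bases apart on the minus strand of chromosome 2, between annotated genes. Mir296 had 0 and 0 reads in LoGlu and 10 and 15 in HiGlu, and Mir298 had 0 and 0 against 10 and 14. Mir296 was at least 8.25-fold and Mir298 at least 7.92-fold higher by the same floor, and both passed limma (adjusted p = 3.3e-04 and 2.2e-04) and voom (2.6e-04 for each). The 2 rows moved together, as the 2 rows of the Mir132 pair did. Like that pair, they had reached the minimum only through HiGlu.

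Other rows rose too, most of them from measurable levels. Mir670, in an exon of the non-coding E530001K10Rik on chromosome 2, went from 9 and 6 reads to 36 and 37 (log2 fold change 1.95 ± 0.14, adjusted p = 2.7e-04; voom 0.0020). Mir22 (chr11:75277218-75277312) went from 28 and 10 reads to 86 and 60 (1.92 ± 0.33, adjusted p = 0.0057; voom 0.0014). Mir22hg, the long transcript around Mir22, rose in parallel, from 1.21 and 1.14 RPKM to 4.47 and 3.79 RPKM (1.47 ± 0.10, adjusted p = 2.3e-04). Mir22 lay above Mir22hg per length in every library. Mir129-1 went from 5 and 2 reads to 18 and 19 (1.96 ± 0.22, adjusted p = 0.0013; voom 0.0070). Mir3061, in an exon of the protein phosphatase gene Ppp2ca, went from 0 and 1 reads to 14 and 6 (adjusted p = 0.0021), while Ppp2ca kept 3.85 to 4.45 RPKM throughout. Mir129-1 and Mir3061 had reached the minimum only through HiGlu, so the choice of rows favoured their calls. Mir675, in H19, rose from 28.4 and 32.9 RPKM to 57.9 and 44.6 RPKM (0.72, adjusted p = 0.017; voom 0.011), and H19 rose too (0.52, adjusted p = 0.013). Mir3064, in an exon of Ddx5, rose from 131.7 and 105.3 RPKM to 195.2 and 172.1 RPKM (0.64, adjusted p = 0.023; voom 0.0035), while Ddx5 itself had a log2 fold change of 0.25 (adjusted p = 0.18).

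**Figure D2:**
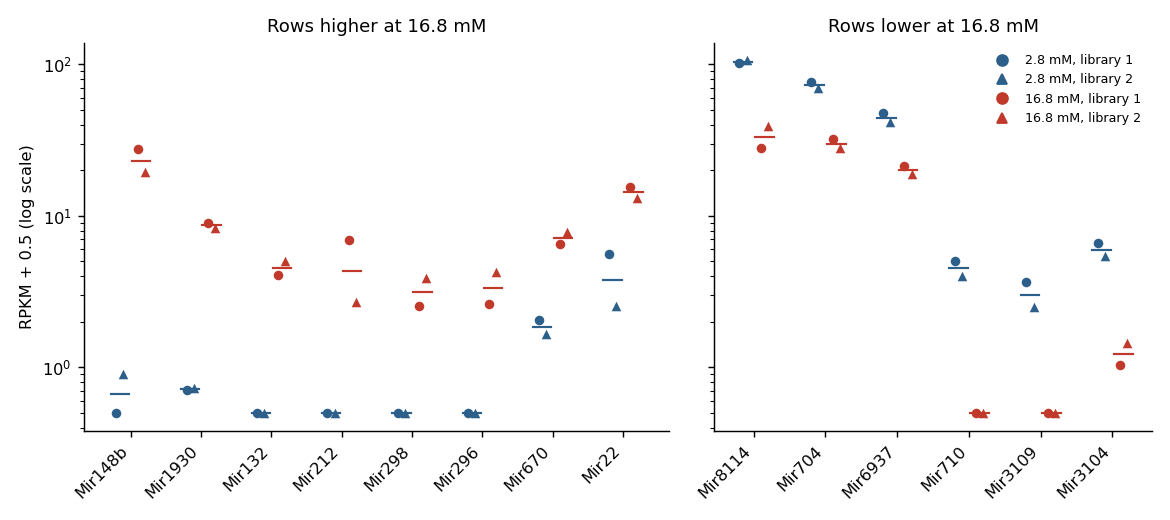
RPKM + 0.5 (log scale) of 14 microRNA rows in each library, 2.8 mM in blue and 16.8 mM in red, circles for library 1 and triangles for library 2, with bars at the group means of the log values. Points at the bottom edge are libraries at 0 RPKM, as for Mir132, Mir212, Mir296 and Mir298 at 2.8 mM and Mir710 and Mir3109 at 16.8 mM.

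Mir8114 fell from a high level. It lies opposite to an exon of 5830403L16Rik (chr1:155747056-155747166, plus strand) and went from 101.4 and 105.7 RPKM in LoGlu to 27.4 and 38.5 RPKM in HiGlu, or from 1256 reads to 398 over both libraries. The log2 fold change was -1.66 ± 0.18 (adjusted p = 0.0011; voom 4.1e-06), and the reads were 3.19-fold lower. The row opposite to it, 5830403L16Rik, was at 0.135 and 0.140 RPKM in LoGlu and at 0.01 and 0 RPKM in HiGlu. That row was thus also lower in both HiGlu libraries, but it lay below the minimum and was not tested. Host values appear to be per length of the whole gene, so a low RPKM there can still stand for many reads. The kit does not mark the strand of a read.

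Mir710 and Mir3109 mirrored Mir132, with reads at 2.8 mM only. Both had reached the minimum only through LoGlu. Mir710, between genes on chromosome 8, had 29 and 20 reads in LoGlu and 0 and 0 in HiGlu, at least 16.5-fold lower (adjusted p = 1.8e-05; voom 2.5e-05). Mir3109, in an intron of Anxa2, had 16 and 9 reads in LoGlu and 0 and 0 in HiGlu, at least 8.42-fold lower (adjusted p = 1.6e-04; voom 2.2e-04). Anxa2, which encodes a membrane-binding annexin, stood at 0.440 and 0.534 RPKM in LoGlu and at 0.907 and 1.01 RPKM in HiGlu, so the row was lower and its host higher in both HiGlu libraries. Mir3104, in an exon of Brsk2, a kinase found in neurons and islets, went from 22 and 16 reads to 2 and 3 (log2 fold change -2.29 ± 0.17, adjusted p = 3.3e-04; voom 0.0029). Brsk2 held 0.323 to 0.401 RPKM in the 4 libraries. Mir3104 too had reached the minimum only through LoGlu, so the choice of rows favoured its call. Mir5133 went from 25 and 27 reads to 6 and 7 (-1.72 ± 0.15, adjusted p = 5.4e-04; voom 0.0069).

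Other rows fell together with their host. Mir704, in an exon of Pdia4, which encodes a disulfide isomerase of the endoplasmic reticulum, went from 75.6 and 69.1 RPKM to 31.6 and 27.4 RPKM (log2 fold change -1.28 ± 0.14, adjusted p = 0.0011; voom 1.2e-04). Pdia4 went from 14.8 and 13.4 RPKM to 5.80 and 6.04 RPKM (-1.19, adjusted p = 6.6e-04). Mir6937, in an intron of Adi1, an enzyme of methionine salvage, fell by 1.15 on the log2 scale (adjusted p = 0.0017), and Adi1 fell by 1.10 (adjusted p = 8.8e-04). Mir6940 fell by 1.12 in Cep170b, which fell by 0.60, and Mir6968 fell by 1.06 in Phf1, which fell by 0.58, all with an adjusted p under 0.05. The rows of Mir692-1, Mir692-2b and Mir692-3 had no host row to compare with. They fell by 0.74 to 0.78 (adjusted p = 0.0059 to 0.0060) at levels above 90 RPKM in every library.

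Many members had a same-strand host row that was itself tested. Across all of these the Spearman correlation between the log2 fold change of the row and that of the host was 0.615. It was 0.798 for the 58 members with at least 200 reads, 0.572 for the 137 with at least 40 but under 200 reads and 0.443 for the 22 with fewer. These points share their 4 libraries, several members share a host, and the host's count may hold the reads over the hairpin. The median absolute difference between row and host was 0.14 on the log2 scale in the first set and 0.28 in the second. Of the 74 called members in the 3 sets, 41 had a host called in the same direction, 32 had a host that was not called and 1 had a host called in the opposite direction. That 1 was Mir1930.

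The row exceeded its host by more than 1 on the log2 scale in 7 members and fell short by more than 1 in 4. Mir148b (5.15) and Mir1930 (4.05) headed the first group. Mir7227 followed at 2.27, but its reads were 0, 0, 16 and 1, so 1 library carried the difference. Mir3061 exceeded Ppp2ca by 2.03. Mir7061 in Plekha1 exceeded its host by 1.78, with 8 and 12 reads in LoGlu against 24 and 53 in HiGlu (adjusted p = 0.020; voom 0.022). Mir21a, in an exon of the autophagy gene Vmp1, exceeded it by 1.30, with 10 and 5 reads against 14 and 22. Mir3960 in Cdk9 differed by 1.16 and was not called (adjusted p = 0.28). The 4 on the other side were Mir340, Mir5616, Mir7042 and Mir6991, of which Mir340 and Mir5616 each had 1 HiGlu library at 1 or 0 reads while the other held 160 or 13. The differences between row and host were not tested.

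**Figure D3:**
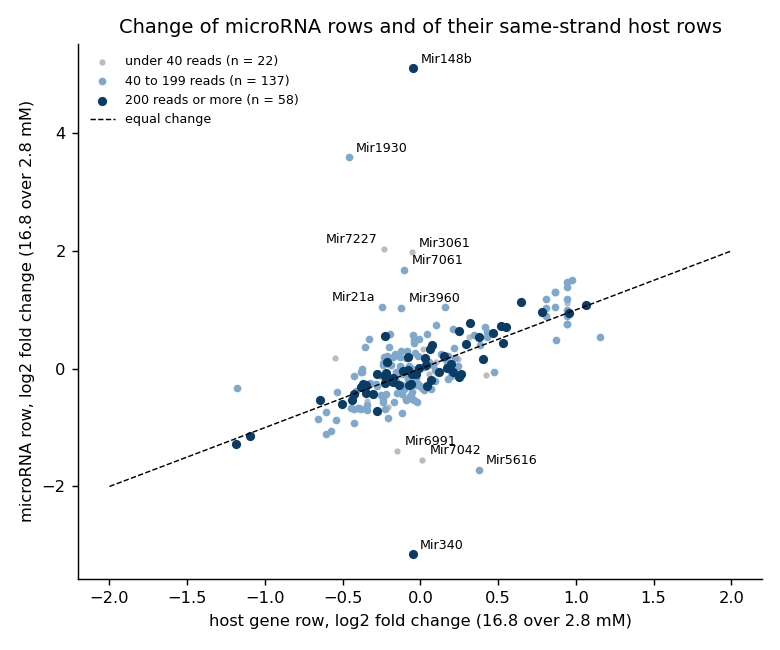
Log2 fold change (16.8 over 2.8 mM) of microRNA rows (vertical) against that of their same-strand host rows (horizontal), for the members whose host row was tested, darker points with more reads. Rows with at least 200 reads had a median absolute difference of 0.14 from the dashed line of equal change. Among them Mir148b and Mir340 lie farthest from it, and others, such as Mir7654, lie off it by less than 1. The 11 named rows lie more than 1 away from it.

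The imprinted Meg3, Rian and Mirg locus on chromosome 12 held 20 members, 19 of them on the plus strand like the 3 long non-coding RNAs themselves. Of these 19, 12 were called higher (63.2%, beside 10.7% of all transcripts) and none lower (beside 22.8%), and the HiGlu libraries lay above the LoGlu libraries in 15 (78.9%, beside 22.2%). Mir134, Mir154 and Mir496a, among the 12, had reached the minimum only through HiGlu, so the choice of rows favoured their calls. Mir668 had also reached it only through HiGlu and Mir673 only through LoGlu, and neither was called. The median log2 fold change of the 19 was 0.90, against -0.11 over all transcripts tested. Voom called 5 of the 16 that it could test, all higher, which is 31.2% beside 36.2% of all transcripts in either direction. The members share 3 long transcripts and are not independent of each other.

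Mir770, in an exon of Meg3, stood highest, at 52.0 and 44.9 RPKM in LoGlu and 83.6 and 65.0 RPKM in HiGlu (log2 fold change 0.60, adjusted p = 0.031; voom 0.013). Within Rian, Mir341 went from 13 and 10 reads to 35 and 30 (1.31 ± 0.10, adjusted p = 3.8e-04; voom 0.015), Mir1188 from 18 and 11 to 46 and 35 (1.31 ± 0.15, adjusted p = 0.0014; voom 0.011), and Mir370 from 8 and 5 to 16 and 15 (1.04, adjusted p = 0.0022; voom 0.087). The rows at the far end of the locus were less even. Within Mirg, Mir410 went from 13 and 11 reads to 43 and 29 (1.40 ± 0.12, adjusted p = 5.7e-04; voom 0.011), and Mir412, 346 bases away, from 5 and 6 to 36 and 10 (1.47, adjusted p = 0.029; voom 0.041). Some neighbours were not called: Mir409 had 9 and 6 reads against 27 and 7 (adjusted p = 0.18), Mir369 had 5 and 8 against 21 and 9 (0.052), and Mir3072 had 14 and 24 against 40 and 27 (0.060). Mir496a was called by limma (0.97, adjusted p = 7.8e-04) on only 3 and 3 reads against 8 and 8, its read ratio interval ran from 0.982 to 8.24, and voom did not call it (0.13). The rows of the long RNAs rose as well. Meg3 went from 24.8 and 23.5 RPKM to 35.5 and 31.7 RPKM (0.47, adjusted p = 0.030), Rian from 3.06 and 2.99 to 6.17 and 5.70 RPKM (0.87, adjusted p = 0.0013), and Mirg from 0.768 and 0.919 to 2.28 and 1.88 RPKM (0.94, adjusted p = 0.0013). Of the 20 members, 2 had a negative log2 fold change. Mir493, on the plus strand, had 2 and 13 reads in LoGlu against 4 and 7 in HiGlu (-0.10, adjusted p = 0.90), and Mir299b, on the minus strand, had 8 and 2 against 0 and 1 (-1.63, adjusted p = 0.028). Mir299b had reached the minimum only through LoGlu, so the choice of rows favoured its call, and it was not in the voom fit.

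**Figure D4:**
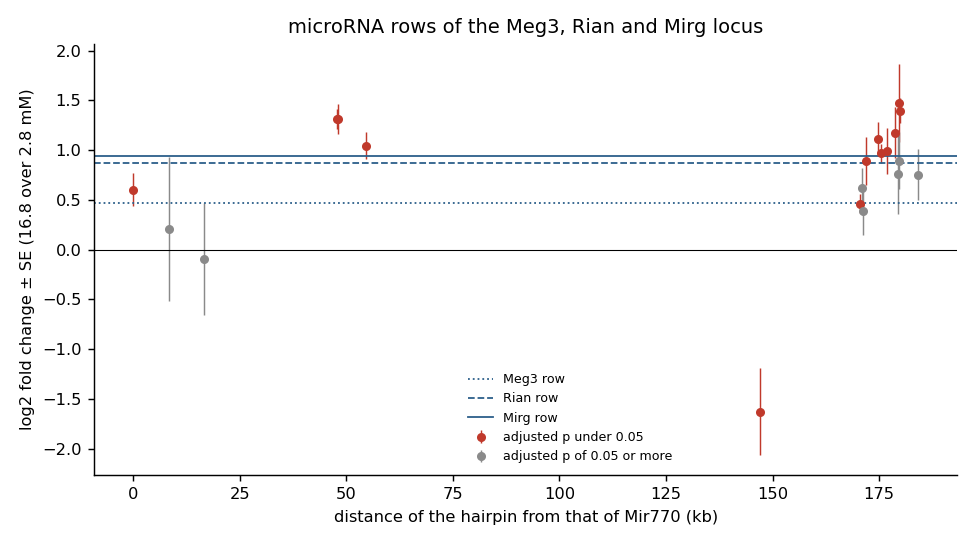
Log2 fold change ± SE (16.8 over 2.8 mM) of the 20 microRNA rows of the locus against the distance of each hairpin from that of Mir770 in kb, red where the adjusted p was under 0.05, with lines for the Meg3, Rian and Mirg rows. Rows within Rian and Mirg lie around the lines of those transcripts, and the single low point is Mir299b on the other strand.

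In all, 23 groups of members lay within 10 kb of each other on one strand, holding 65 members. In 20 of the groups all members had a log2 fold change of one sign, and 9 groups held no called member. Agreement within the groups was not tested, and some spread widely, such as Mir2861 at 0.05 and Mir3960 at 1.04. In 2010111I01Rik on chromosome 13, Mir23b went from 24 and 22 reads to 66 and 46 (1.18 ± 0.13, adjusted p = 0.0010; voom 0.012), Mir27b from 30 and 23 to 65 and 40 (0.90, adjusted p = 0.0073; voom 0.047) and Mir24-1 from 36 and 25 to 67 and 61 (1.03, adjusted p = 0.0029; voom 0.019). The host row rose by 0.81 (adjusted p = 0.0017). Mir3074-1 overlaps Mir24-1 on the other strand, had 43 and 31 reads against 78 and 71, and cannot be told apart from it without strand. The paralogous hairpins Mir23a, Mir27a and Mir24-2 all lay below the minimum, with means of 0.876, 0.727 and 0.754 RPKM.

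The clusters of the miR-200 family did not share a direction. On chromosome 6, Mir200c went from 8 and 6 reads to 19 and 10 (0.82, adjusted p = 0.016) and Mir141 from 13 and 7 to 21 and 10 (0.51, adjusted p = 0.17). On chromosome 4, within Ttll10, Mir200b went from 9 and 13 reads to 3 and 4 (-1.25, adjusted p = 0.0057), Mir200a from 6 and 13 to 4 and 7 (-0.55, adjusted p = 0.24) and Mir429 from 6 and 15 to 7 and 10 (-0.17, adjusted p = 0.74). Mir200b had reached the minimum only through LoGlu, so the choice of rows favoured its limma call. Voom called none of the 5 (adjusted p from 0.068 for Mir200b to 0.84 for Mir429). The Ttll10 row stood at 1.294 and 1.498 RPKM in LoGlu and at 0.405 and 0.360 RPKM in HiGlu. The difference between the clusters was not tested.

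A list of 93 microRNA symbols from families with known roles in islets had 34 members. Limma called 9 of them higher (26.5%, beside 10.7% of all transcripts) and 7 lower (20.6%, beside 22.8%). Among the 9, Mir132, Mir212 and Mir148b had reached the minimum only through HiGlu, so the choice of rows favoured their calls. Mir200b, among the rows called lower, had reached it only through LoGlu, which favoured its call likewise. The list was chosen with earlier results of these data known. Voom called 7 higher and none lower, or 20.6% beside 36.2% of all transcripts in either direction. The 7 were Mir132, Mir212, Mir148b, Mir410, Mir23b, Mir24-1 and Mir27b. The rows called lower by limma had few reads or small changes. Mir26a-2, in an exon of Ctdsp2, went from 39 and 42 reads to 26 and 16 (-0.92, adjusted p = 0.0063; voom 0.059), and Mir29b-2 from 42 and 45 to 33 and 21 (-0.69, adjusted p = 0.017; voom 0.14). Mir26a-1 on chromosome 9 had 14 and 10 reads against 8 and 7, whereas Mir26b, with the same seed, had 22 and 25 against 38 and 20. Mir7-1, in an intron of Hnrnpk, had 19.8 and 14.6 RPKM in LoGlu and 15.6 and 16.4 RPKM in HiGlu, a read ratio of 0.918 with an interval from 0.749 to 1.12. Mirlet7f-2 had 45 and 27 reads against 35 and 39, and Mir29c 70 and 72 against 77 and 42, both with overlapping groups. Mir1224, in Vwa5b2, had 45 and 30 reads against 65 and 38 (0.40, adjusted p = 0.15), near the change of its host (0.38, adjusted p = 0.021).

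The other 59 symbols of the list lay below the minimum, and 20 of them were listed at 0 in every library. Mir375 had 3 and 0 reads in LoGlu and 4 and 1 in HiGlu, a mean of 0.543 RPKM. Mir148a had 3 and 3 against 4 and 1. At these depths no difference between the groups was detectable for either.

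Some rows differed as much between replicates as Mir148b did between groups. In 9 of the 459 members with reconstructed reads, 1 library of a pair held at least 20 reads and 5-fold or more the reads of the other. Mir483, in an intron of Igf2, had 0 and 190 reads in LoGlu and 352 and 265 in HiGlu. Mir153, in an intron of the secretory granule gene Ptprn2, had 36.7 and 0.283 RPKM in LoGlu and 45.5 and 40.5 RPKM in HiGlu. Mir340 had 215 and 200 reads in LoGlu and 160 and 1 in HiGlu, and Mir199a-1 had 61 and 37 against 36 and 2. Their hosts did not follow: Igf2 was at 0.721 and 0.788 RPKM in LoGlu, Ptprn2 at 0.608 and 0.634 RPKM, Rnf130 at 2.21 and 2.20 RPKM in HiGlu and Dnm2 at 1.28 and 1.23 RPKM. The other 5 were Mir344, Mir344c, Mir695, Mir713 and Mir3112, whose highest library held 20 to 24 reads. None of the 9 passed the limma test, whereas voom gave Mir483, Mir153, Mir340 and Mir199a-1 an adjusted p of 0.0053, 0.016, 0.010 and 0.021. The library that stood apart was LoGlu 1 for Mir483, LoGlu 2 for Mir153 and HiGlu 2 for Mir340 and Mir199a-1.

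**Figure D5:**
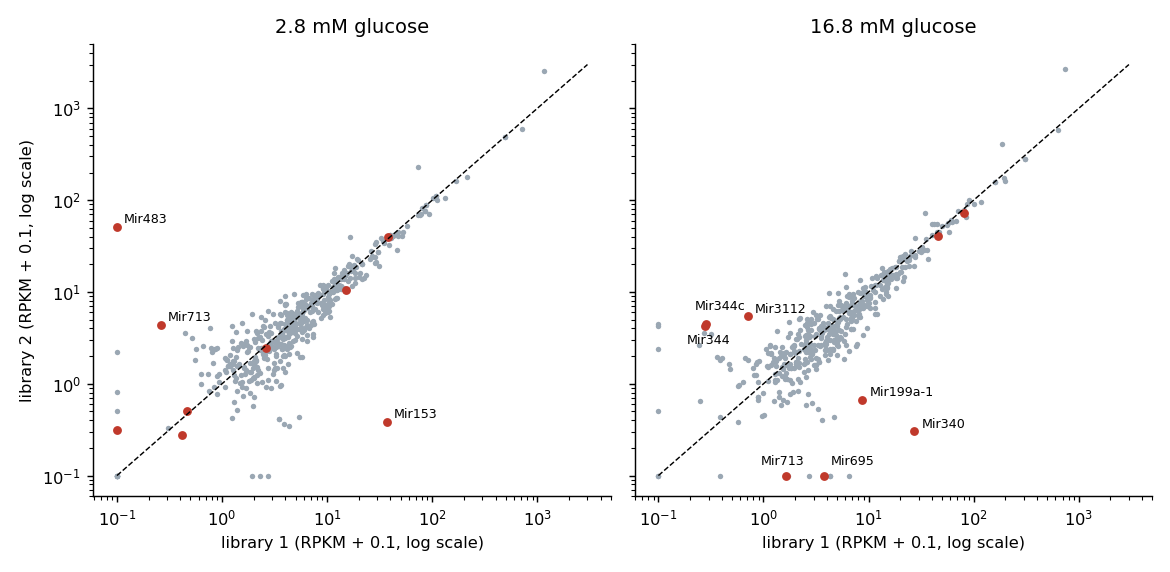
RPKM + 0.1 of each of the 497 microRNA rows in library 2 (vertical) against library 1 (horizontal), both log scales, for each glucose level. Red points are the 9 rows in which 1 library of a pair held at least 20 reads and 5-fold or more those of the other, named where they lie apart.

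Among 34 genes that make, carry or use microRNAs, 15 reached 1 RPKM and were tested, with a median log2 fold change of -0.11. Drosha (0.285 RPKM), Dgcr8 (0.554) and Xpo5 (0.993), which act first, were below the minimum. Dicer1 had 1.27 and 1.23 RPKM in LoGlu and 1.15 and 1.10 RPKM in HiGlu (-0.11 ± 0.08, adjusted p = 0.31). Tarbp2, a partner of Dicer1, fell from 2.30 and 2.50 to 1.97 and 1.79 RPKM (-0.28, adjusted p = 0.049). Among the Argonautes only Ago1 reached the minimum, and it fell from 1.56 and 1.54 to 1.05 and 0.992 RPKM (-0.43 ± 0.08, adjusted p = 0.0064). Khsrp, which binds some hairpins, fell by 0.40 (adjusted p = 0.027), and Fmr1, an RNA-binding partner of Argonaute, fell by 0.34 (adjusted p = 0.021). Srsf3, a splicing factor that also aids Drosha, rose from 5.58 and 5.08 to 9.64 and 9.19 RPKM (0.77 ± 0.11, adjusted p = 0.0029). That made 1 of 15 higher and 4 lower, beside 10.7% and 22.8% of all transcripts. Under voom 16 of 34 passed, 4 higher and 12 lower, or 47.1% beside 36.2% of all transcripts.

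The rows at the edge of the choice rested on few reads. The last rows inside were Mir673 at a mean of 1.009 RPKM (0, 10, 2 and 7 reads), Mir210 at 1.008 (3, 13, 6 and 2) and Mir6539 at 1.002 (11, 9, 1 and 3). The first rows outside were Mirlet7c-2 at 0.952 (2, 4, 9 and 5), Mir344d-3 at 0.939 (4, 4, 8 and 1) and Mir7229 at 0.938 (8, 2, 0 and 1). The rows on both sides of the minimum were alike in reads.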

How the data were processed

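The submitters' notes name STAR, bedtools and DESeq with mouse genome mm9, and the study's methods describe counting over RefSeq entries. The authors deposited RPKM values per entry and library, with no counts, and identical entries of a symbol were used once. Members and lists were chosen with earlier results of these data known. The main test was limma 3.58.1 (R 4.3.3) with a trended variance on log2(RPKM + 0.5), over all transcripts whose mean reached 1 RPKM. Fold changes on that scale understate the change of low rows. Named rows were the 15 smallest p-values in each direction, the 10 highest means, the 3 rows on each side of the minimum, the islet list, near neighbours and shared seeds of these, and host and pathway genes. Mir22, Mir675, Mir7061 and the rows with replicates apart were named after their values were seen.

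Reads were reconstructed from the value steps. RefSeq hairpins were matched exactly to NCBI build 37, which gave the coordinates. For 27 members the length came from the steps, and 38 had no usable length. Whether a fragment over a hairpin was counted for both the row and its host is not given in the sources used here. Coordinates are 1-based. With 2 libraries a group, no permutation test over samples can go below a two-sided p of 0.333. The fits were tested on simulated reads of 7706 transcripts, in which limma recovered 99% and voom 99% of 100 transcripts changed by 1 on the log2 scale. All simulated transcripts had the same spread beyond counting error, and recovery was not scored for microRNA rows. The 99% therefore does not tell how many changed microRNA rows would be found.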

Additional observations from a re-analysis of the deposited data

How the results depend on the processing

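Of 41 named rows that passed the limma test, none changed direction in an alternative that could test it, and 14 lost the call in at least one. Voom could test 39 of them and the fit with at least 1 RPKM in every library 24, which leaves out rows with a library at 0 such as Mir132, Mir212 and Mir710. Leaving out 1 library cost the call of 3 of them, Mir103-2 in each case, Mirlet7g without LoGlu 1, HiGlu 1 or HiGlu 2, and Mir29b-2 without HiGlu 2. The count of changed microRNA rows was 66 with no minimum mean, where 26272 transcripts were tested, 57 with voom, and 201 to 285 with 1 library left out (270 without LoGlu 1, 285 without LoGlu 2). Over all transcripts it was 4067 with the replicate number as a block, 7859 with voom, and 1825 to 2579 with 1 library left out. For the pathway genes it was 3 with at least 1 RPKM in every library, 16 with voom and 2 to 5 with 1 library left out (2 without LoGlu 1 and 2 without HiGlu 2). The cause of these shifts was not tested, and a group left with 1 library was assumed to vary like the other. The replicate block gave 176 changed microRNA rows (35.41%, beside 51.7% of all transcripts), 135 of them also called without it. The deviations of same-numbered libraries correlated at 0.31 over transcripts and at -0.01 over microRNA rows, and nothing says that the numbers pair the samples. Leaving out the 9 rows with replicates apart, a choice made after seeing the data, kept the count at 161. The reads per row limit what can be seen: 332 members held at least 40 reads in all.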
